A study of Mus musculus with 15 samples.

Results

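RNA sequencing of group 2 innate lymphoid cells (ILC2s) sorted from the lamina propria (LP) of the gut was run in 2 experiments, and the libraries of experiment 2 are compared here with those of experiment 1. All samples that GEO lists with the cell type ILC2 were taken, which gave 7 of the 15 libraries of the series: 4 from experiment 1 (2 WT and 2 Tgfbr2-/-) and 3 from experiment 2 (2 WT and 1 Tgfbr2-/-). Every mouse was a C57BL/6 animal that carried Tgfbr2f/f and ER-Cre, so the controls too had the floxed allele and the Cre. Tgfbr2-/- mice had received tamoxifen at 1 mg per day for 5 days and WT mice sunflower oil alone. Mice were 8 to 12 weeks old at treatment in the study's description of these animals and were killed 1 day after the last dose. The ER-Cre of these mice is not restricted to ILC2s. By the methods of the study, LP cells came from small intestine and colon that had been stripped of epithelium with EDTA. Cells were gated as CD45+Lin-CD127+Sca-1+CD25+KLRG1+, with lineage antibodies that included those against CD3, CD5, B220, CD11b, CD11c, Gr-1 and CD23. Replicate numbers are those of the sample titles, and the file headers give the Tgfbr2-/- libraries of experiment 1 other replicate names. The labels do not say whether a library came from 1 animal or from pooled animals. P-values therefore measure the spread between these libraries, which may be technical. The file headers place experiment 1 and experiment 2 in separate sequencing runs, so the experiment and the run cannot be told apart.

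ILC2s are tissue-resident lymphocytes that carry no antigen receptor, depend on the transcription factor GATA3, and answer cytokines released by epithelium and stroma with type 2 cytokines and amphiregulin. In the gut they lie in the lamina propria, next to epithelium, vessels, fibroblasts, macrophages and other innate and adaptive lymphocytes, and a sort separates them from these neighbours by surface proteins. Bulk RNA from a sort reads every cell that passed the gate and any RNA carried along with it. In bulk samples, fewer cells of a type and less RNA per cell cannot be told apart.

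Experiment 1 was sequenced more deeply. Its libraries held 22350339 and 20983448 reads counted on genes in WT and 29340187 and 32114265 in Tgfbr2-/-, and those of experiment 2 held 15823862 and 12997489 in WT and 12167066 in Tgfbr2-/-. The number of genes with at least 1 read overlapped between the experiments and did not follow depth. It was 12345, 12571, 13543 and 12950 in experiment 1 and 13592, 13255 and 14971 in experiment 2. Levels are given below as CPM, the reads of a gene scaled to the library's reads on genes and to edgeR's TMM factors, and a difference is the log2 fold change of experiment 2 minus experiment 1 with genotype as a covariate. At these depths 3 reads, the floor used for a gene without a read, equal 0.0959 to 0.23 CPM in a library. Intervals and floors of this kind cover counting error only.

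The targeted gene did not separate the libraries labelled Tgfbr2-/- from WT in experiment 1, and was lowest in the one labelled Tgfbr2-/- in experiment 2. Tgfbr2 (chromosome 9, 115993415 to 116084383, mm9), the ligand-binding receptor of the TGF-beta pathway, was counted at 187 and 275 (WT) and 216 and 191 CPM (Tgfbr2-/-) in experiment 1, and at 155 and 216 (WT) and 102 CPM (Tgfbr2-/-) in experiment 2. The range of the libraries labelled Tgfbr2-/- in experiment 1 lay inside that of the WT libraries, and in experiment 2 the library labelled Tgfbr2-/- lay below both WT libraries. Counts over whole transcripts also include exons outside the floxed part, so these levels do not check the deletion. Between the experiments the log2 fold change of Tgfbr2 was -0.58 (SE 0.25, adjusted p = 0.346 by edgeR), which did not pass the threshold.

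Markers of the sorted cells were present in all 7 libraries. Klrg1, the lectin receptor used in the gate, was counted at 909 and 879 (WT) and 718 and 704 CPM (Tgfbr2-/-) in experiment 1, and at 1016 and 875 (WT) and 817 CPM (Tgfbr2-/-) in experiment 2. The ranges overlapped, with a log2 fold change of 0.13 (SE 0.14, adjusted p = 0.702). Of the 5 gate genes (Ptprc, Il7r, Ly6a, Il2ra and Klrg1) none was called, their median log2 fold change was 0.22 (0.09 without the Tgfbr2-/- library of experiment 2, and up to 0.41 under other scalings), and the sum did not overlap between the experiments. It was 2605 and 2439 (WT) and 2161 and 2374 CPM (Tgfbr2-/-) in experiment 1, and 3083 and 2799.6 (WT) and 2879 CPM (Tgfbr2-/-) in experiment 2, so every library of experiment 2 was higher. Gata3 was counted at 3251 and 3766 (WT) and 2379.8 and 3074 CPM (Tgfbr2-/-) in experiment 1, and at 4515 and 4905 (WT) and 4450.1 CPM (Tgfbr2-/-) in experiment 2. All 3 libraries of experiment 2 lay above the 4 of experiment 1, and the difference did not pass (log2 fold change 0.54, SE 0.14, adjusted p = 0.187). Among 21 tested ILC2 receptors and transcription factors 0 were called, and their median log2 fold change was 0.03, beside 0.10 over all genes tested. With edgeR 5 of them had an unadjusted p under 0.05 with a lower level in experiment 2 (Thy1, Il9r, Crlf2, Kit and Id2) (6.32% over all genes) and 1, Gata3, with a higher one (7.85%). Il1rl1, which encodes the IL-33 receptor ST2, was counted at 77.5 and 171 (WT) and 53.4 and 58.1 CPM (Tgfbr2-/-) in experiment 1, and at 227 and 210.1 (WT) and 60.0 CPM (Tgfbr2-/-) in experiment 2, with overlapping ranges.

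Each library of experiment 2 held genes of other tissues or cell types at a level that the libraries of experiment 1 did not reach, and the leading genes differed between the 3. The WT replicate 1 library held pancreatic acinar and gastric gland genes. The WT replicate 2 library held macrophage, MHC class II, vessel, fibroblast, gastric gland, and enterocyte and pan-epithelial genes. The Tgfbr2-/- library held gastric surface genes and the highest sum of the enterocyte and pan-epithelial list. Krt8, a keratin of simple epithelium, was the most abundant gene of that list in each library of experiment 2. The part of that sum from intestinal epithelium was not tested. The plot of summed marker levels shows these 3 patterns beside the gate genes. The labels give the same strain, tissue and cell type for both experiments, and the part of these other transcripts in the remaining differences was not tested.

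**Figure D1:**
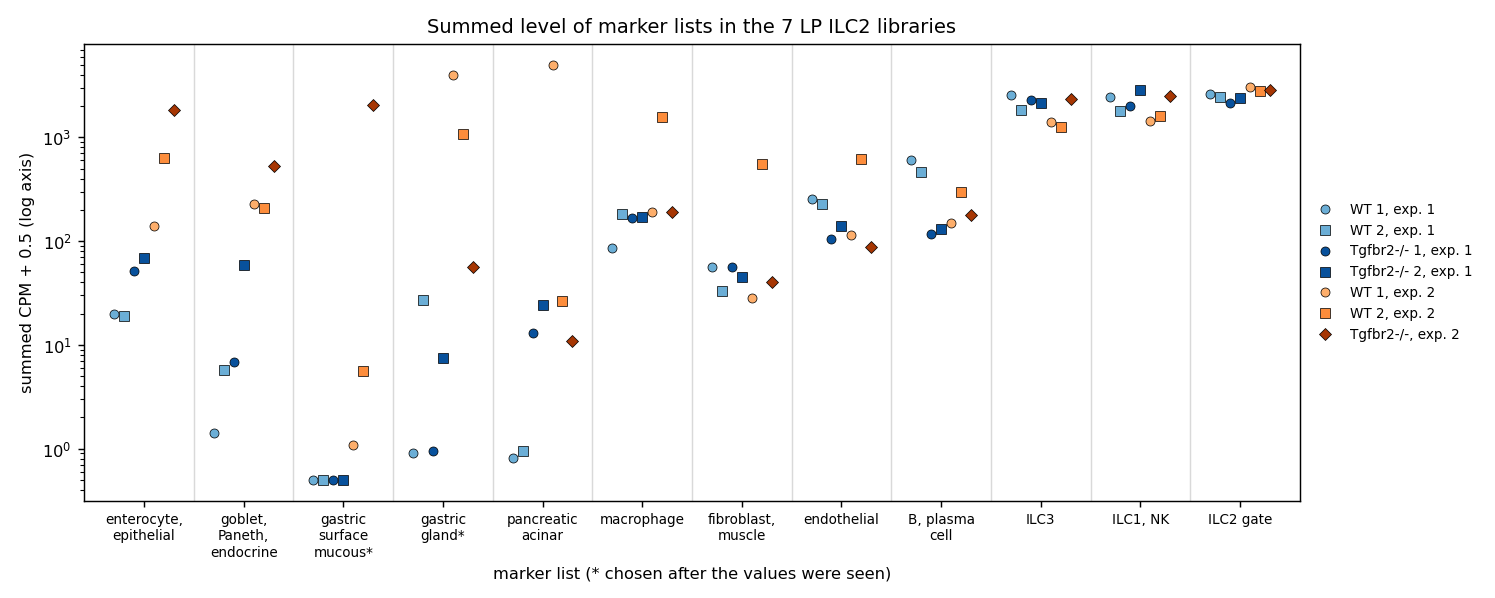
Summed CPM + 0.5 on a log axis (y) of 12 marker lists (x) in each of the 7 LP ILC2 libraries (1 symbol per library, blue for experiment 1 and orange to brown for experiment 2). The acinar list reaches 5020.1 CPM in the WT replicate 1 library of experiment 2 and the gate genes lie between 2161 and 3083 CPM, higher in each library of experiment 2.

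Across all genes, 105 of 14175 entries tested (0.741%) passed an adjusted p under 0.1 with a fold over 1.5 in edgeR's quasi-likelihood test. Of these, 35 (0.247%) were higher in experiment 2 and 70 (0.494%) were higher in experiment 1, and in 102 of the 105 the 2 experiments did not overlap. Over all genes tested, 8.32% were higher in every experiment 2 library and 7.62% were higher in every experiment 1 library, and 2009 (14.2%) had an unadjusted p under 0.05. The 35 and the 70 differed in level: 28 of the 35 had a mean under 10 CPM in experiment 1, 15 of them without a single read, and the lowest experiment 1 mean among the 70 was 91.0 CPM. The calls depended on single libraries. Without the Tgfbr2-/- library of experiment 2 edgeR called 0 genes, with 1788 at an unadjusted p under 0.05, and without any other single library it called 2 to 61. Under scaling by library size alone it called 46, of which 28 were higher in experiment 2, and under upper quartile scaling 60, of which 30 were. With other tests most calls were higher in experiment 2: 1300 against 654 with DESeq2, 1060 against 389 with a likelihood ratio test chosen after the data were seen, and 52 against 34 with limma on RPKM, which shared 46 calls.

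**Figure D2:**
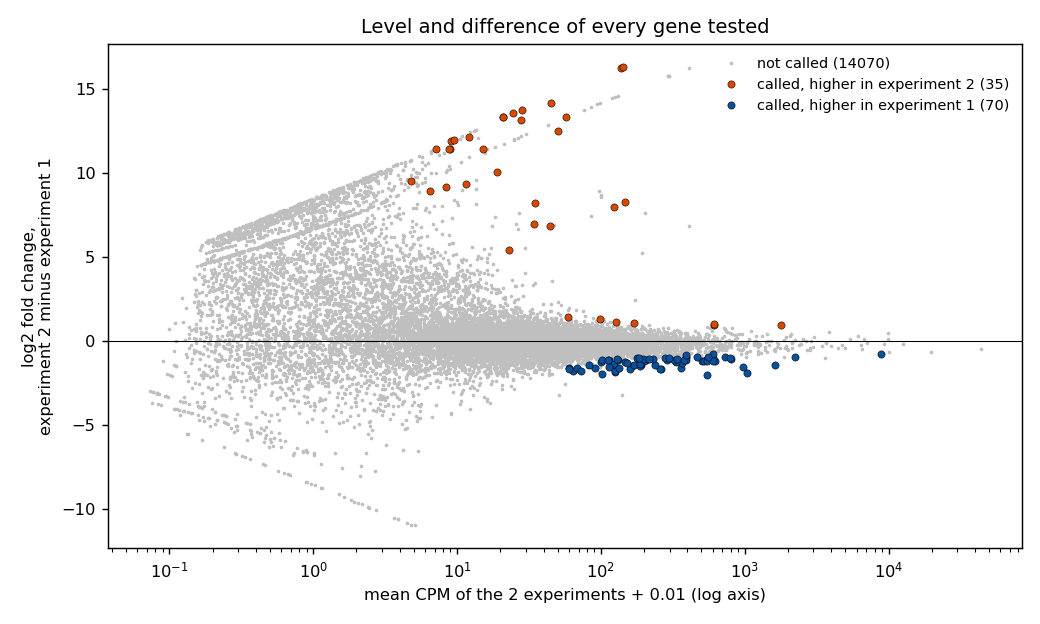
Log2 fold change of experiment 2 minus experiment 1 (y) against the mean CPM of the 2 experiments + 0.01 on a log axis (x) for the 14175 entries tested, with the 105 called ones in colour. The 70 called higher in experiment 1 lie at high level with small differences, and 28 of the 35 called higher in experiment 2 lie far above the rest.

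Of the 28 entries that were called higher in experiment 2 from a low level, 6 belonged to the epithelial and secretory lists. The filter on low counts asked that a gene reach its cutoff in only 1 library, the size of the smallest group of genotype and experiment. A gene at or near 0 in experiment 1 was therefore tested only where at least 1 library of experiment 2 reached the cutoff. Calls, counts and medians over such genes are descriptions. A filter over the 2 experiments, chosen after the data were seen, tested 23 of the 28. The other 5, Gkn1, Gkn2, both entries of Tff1 and Dpcr1, were not tested under it. The library with the highest level was the Tgfbr2-/- one for 17, WT replicate 2 for 8 and WT replicate 1 for 3. Only 9 reached 5 CPM in all 3 libraries of experiment 2: Agr2, Clu, Dmbt1, Gcnt3, Klk1, Krt8, Krt18, Krt19 and Tmprss2. Agr2 (chromosome 12, 36719494 to 36730674, mm9), an endoplasmic reticulum isomerase that mucus-secreting cells need, had 1 read in the 4 libraries of experiment 1 together. It was counted at 133 and 92.7 (WT) and 76.5 CPM (Tgfbr2-/-) in experiment 2. Dmbt1 (chromosome 7, 138175590 to 138265140, mm9), a mucosal scavenger glycoprotein, had no read in experiment 1 and was counted at 52.3 and 59.1 (WT) and 56.5 CPM (Tgfbr2-/-) in experiment 2. All 3 libraries of experiment 2 carried both transcripts, and Dmbt1 was at least 1864-fold higher, taking 3 reads over experiment 1 as the floor. Both genes entered the test only through experiment 2, so no p-value is read from them.

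Other secretory genes were less even. Muc2, the gel-forming mucin of goblet cells, was counted at 0.994 and 10.6 (WT) and 79.2 CPM (Tgfbr2-/-) in experiment 2 against 1 read in experiment 1. Klk1, tissue kallikrein, was chosen after its values were seen. It was counted at 62.0 and 23.1 (WT) and 27.6 CPM (Tgfbr2-/-) in experiment 2 against 4 reads in experiment 1. Both genes entered the test only through experiment 2. Muc2 was highest in the Tgfbr2-/- library and Klk1 in WT replicate 1. Of 15 tested genes of goblet, Paneth and enteroendocrine cells, 2 were called higher in experiment 2 (Agr2 and Muc2), beside 0.247% over all genes, and 0 lower. Of the 15, 11 were tested under the filter over the 2 experiments and 0 had 10 counts in every library, so nothing is read from this count. The list summed to 0.915 and 5.21 (WT) and 6.36 and 58.2 CPM (Tgfbr2-/-) in experiment 1, and to 229 and 206 (WT) and 529 CPM (Tgfbr2-/-) in experiment 2. Its median log2 fold change was 5.93, or 5.80 with genes without enough reads set at their bound, beside 0.10 over all genes, and 5.47 to 7.24 with any 1 library left out. Spink4 and Clca3, also goblet cell genes, and Chga did not pass.

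Keratins of simple epithelium were higher as well. Krt8 (chromosome 15, 101827142 to 101834773, mm9) was counted at 0.153 and 0.0506 (WT) and 0.202 and 10.8 CPM (Tgfbr2-/-) in experiment 1, and at 35.1 and 233 (WT) and 609 CPM (Tgfbr2-/-) in experiment 2. Its log2 fold change was 8.31 (SE 1.41, adjusted p = 0.0789), and 7.32 to 10.91 with any 1 library left out. Krt18, its filament partner and neighbour on chromosome 15, had a log2 fold change of 5.40 (SE 0.84, adjusted p = 0.07), and Krt19 one of 8.01 (SE 1.36, adjusted p = 0.0789, 7.02 to 10.59 with any 1 library left out). The highest values of Krt8 and Krt19 were those without Tgfbr2-/- replicate 2 of experiment 1. The calls of Krt8, Krt18 and Krt19 were each lost in most edgeR fits with 1 library left out. They were also lost without the genotype covariate (edgeR adjusted p = 0.143, 0.221 and 0.153), where the log2 fold change of Krt18 was 3.62. Both keratins, like Krt8, were lowest in WT replicate 1 or 2 and highest in the Tgfbr2-/- library within experiment 2, and within experiment 1 the Tgfbr2-/- replicate 2 library was highest for each.

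Of 25 tested enterocyte and pan-epithelial genes, 4 were called higher in experiment 2 (Krt8, Krt18, Krt19 and Reg3b), beside 0.247% over all genes, and 0 were called lower. Only 13 of the 25 were tested under the filter over the 2 experiments and 1 had 10 counts in every library, so the share of called members is given as a description. Of the 26 listed genes, 18 and 19 (WT) and 16 and 16 (Tgfbr2-/-) had no read in experiment 1, and 12, 3 and 0 had none in experiment 2. The list summed to 19.4 and 18.6 (WT) and 51.1 and 68.6 CPM (Tgfbr2-/-) in experiment 1, and to 139 and 626 (WT) and 1834 CPM (Tgfbr2-/-) in experiment 2, with Krt8 the most abundant gene in each library of experiment 2, Lgals4 in WT replicate 1 of experiment 1, and Epcam in the other libraries of experiment 1. The median log2 fold change was 8.08, or 7.56 at the bound, and ranged from 7.75 to 8.46 with any 1 library left out. Reg3b, an antibacterial lectin, had no read in experiment 1. It was counted at 1.75 and 2.26 (WT) and 53.4 CPM (Tgfbr2-/-) in experiment 2, which alone admitted it to the test. Lypd8, an antibacterial protein of colon epithelium, was counted at 1.75 and 116 (WT) and 153 CPM (Tgfbr2-/-) in experiment 2, Lgals2, a galectin, at 1.23 and 14.5 (WT) and 153 CPM (Tgfbr2-/-) in experiment 2, and Tspan1, a tetraspanin, at 2.75 and 36.9 (WT) and 33.5 CPM (Tgfbr2-/-) in experiment 2. None had a read in experiment 1. All 3 were called, but they entered the test only through experiment 2, so these levels are descriptions. The call of Lypd8 was lost under the filter over the 2 experiments. The absorptive enterocyte genes Alpi, Rbp2 and Fabp2 had no read in experiment 1 or in WT replicate 1 of experiment 2. Fabp2 was counted at 11.7 CPM in WT replicate 2 and 8.45 CPM in the Tgfbr2-/- library, Alpi at 0.0729 and 65.2 CPM, and neither passed. Epcam, which marks epithelial cells, was counted at 6.76 and 16.2 (WT) and 36.5 and 15.2 CPM (Tgfbr2-/-) in experiment 1, and at 32.3 and 56.7 (WT) and 57.6 CPM (Tgfbr2-/-) in experiment 2, so it was present in experiment 1 too, and the ranges overlapped.

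A group of genes belonged to the lining of the stomach. Gkn1 (chromosome 6, 87295647 to 87300917) and Gkn2 (chromosome 6, 87323359 to 87329488, both mm9), which lie side by side and encode gastrokines of surface mucous cells, had no read in experiment 1. Gkn1 was counted at 0.292 and 3.35 (WT) and 851 CPM (Tgfbr2-/-) in experiment 2, and Gkn2 at 0.117 and 0.51 (WT) and 832 CPM (Tgfbr2-/-) in experiment 2. Nearly all of this signal was in the Tgfbr2-/- library. Gkn1, Gkn2, both entries of Tff1, and Dpcr1 are the 5 entries that the filter over the 2 experiments did not test. Their levels are therefore given as values, mainly of 1 library, without a test between the experiments. Tff1, the trefoil peptide of the same cells, is listed in 2 entries that can share reads. Its first entry was counted at 0.117 and 0.291 (WT) and 125 CPM (Tgfbr2-/-) in experiment 2 and at 0 in experiment 1. Dpcr1, a mucin-like gene, followed them at 0.0585 and 0.146 (WT) and 147 CPM (Tgfbr2-/-) in experiment 2. The 8 surface mucous genes listed after the values were seen summed to 2052 CPM in that library, to 0.585 and 5.10 CPM in the WT libraries of experiment 2, and to 0 in experiment 1.

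Genes of gastric glands had another distribution. Pgc (chromosome 17, 47863791 to 47871432, mm9), which encodes the protease precursor progastricsin, had no read in experiment 1. It was counted at 33.5 and 307 (WT) and 0.845 CPM (Tgfbr2-/-) in experiment 2, which alone admitted it to the test. Muc6, the gland mucin, was counted at 0.102 and 17.7 (WT) and 0.168 and 0.128 CPM (Tgfbr2-/-) in experiment 1, and at 934 and 208 (WT) and 0.614 CPM (Tgfbr2-/-) in experiment 2. Gkn3, a gastrokine, was counted at 0.203 and 6.88 (WT) and 0.101 and 2.36 CPM (Tgfbr2-/-) in experiment 1, and at 2068 and 363 (WT) and 3.92 CPM (Tgfbr2-/-) in experiment 2. Both were high in the WT libraries of experiment 2 and low in the Tgfbr2-/- library, and neither was called (adjusted p = 0.229 and 0.268). Tff2, the trefoil peptide of these glands, was counted at 954 and 198 (WT) and 50.1 CPM (Tgfbr2-/-) in experiment 2 and at no more than 4.44 CPM in experiment 1 (adjusted p = 0.117). The 4 chief and parietal cell genes listed after the values were seen, Atp4a, Atp4b, Lipf and Gif, together summed to at most 4.59 CPM in a library. Pgc was not in that list, since it had been placed with the gland genes, so other genes of these cells are not covered. Gland mucins and trefoil peptides are also made by Brunner's glands of the duodenum, and the source of these transcripts was not tested.

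**Figure D3:**
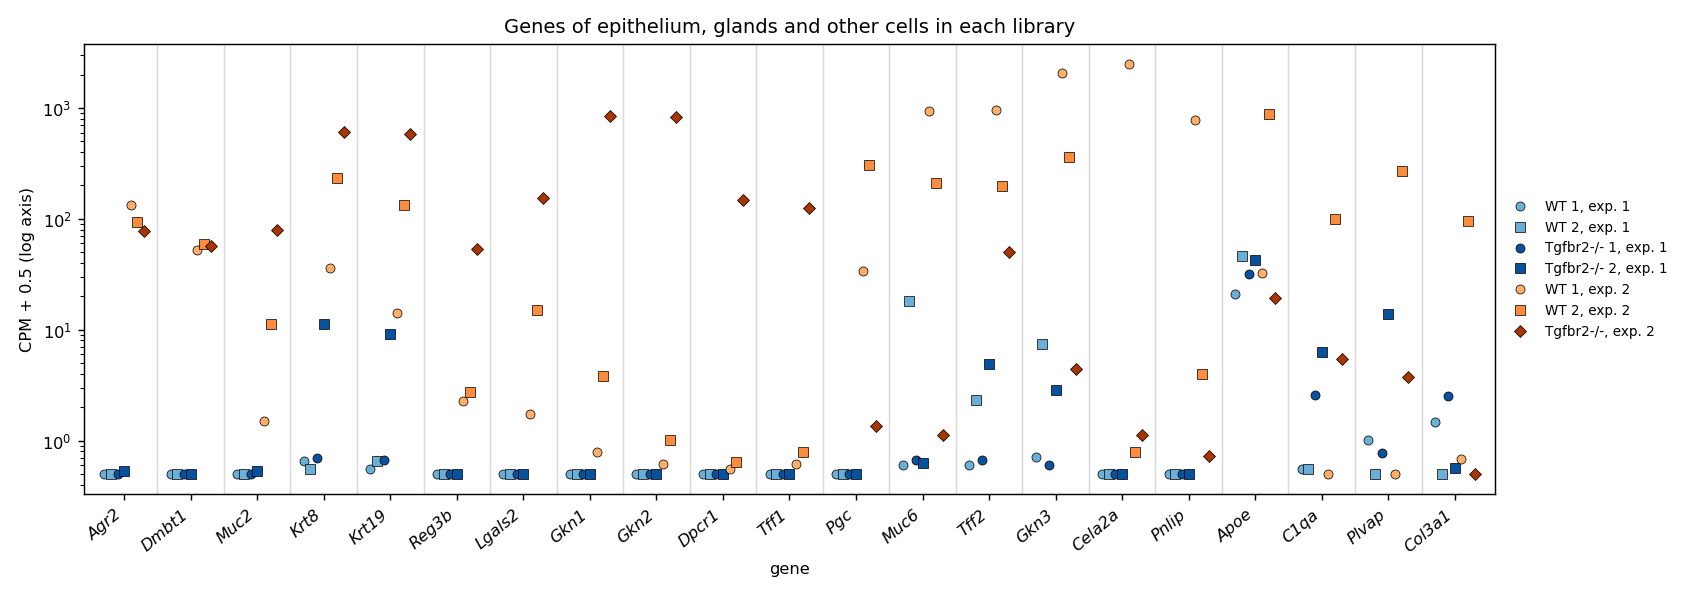
CPM + 0.5 on a log axis (y) of 21 genes of epithelium, gastric and pancreatic glands, macrophages, vessels and fibroblasts (x) in the 7 libraries. Agr2 and Dmbt1 lie high in all 3 libraries of experiment 2, and Gkn1, Cela2a and Plvap each in 1 of them.

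Pancreatic acinar genes were concentrated in 1 library. Cela2a (chromosome 4, 141370877 to 141382075, mm9), which encodes an elastase, was counted at 2465 CPM in WT replicate 1 of experiment 2, at 0.291 and 0.614 CPM in the other libraries of that experiment, and had no read in experiment 1. Pnlip, pancreatic lipase, was counted at 785, 3.50 and 0.23 CPM, and Cpa1, a carboxypeptidase, at 509, 0.0729 and 0.23 CPM in the same order. The 10 acinar genes summed to 5020.1 CPM in that library and to at most 25.9 CPM in any other, and 0 of 10 were called. Only 3 of the 10 were tested under the filter over the 2 experiments. The median log2 fold change was 12.94, or 11.78 at the bound, and 3.79 without that library. Of the islet hormone genes Ins1, Ins2 and Gcg, none had a read in it. Amy2a5, listed after the values were seen, reached 1769 CPM there, but amylase copies share reads. Acinar transcripts were also found at a low level in the Tgfbr2-/- libraries of experiment 1, mainly as Cela1 (11.9 and 16.4 CPM).

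Macrophage, vessel and fibroblast genes were concentrated in WT replicate 2 of experiment 2. Apoe, the lipid carrier that tissue macrophages make in quantity, was counted at 20.3 and 45.3 (WT) and 31.2 and 41.6 CPM (Tgfbr2-/-) in experiment 1, and at 32.0 and 886 (WT) and 18.8 CPM (Tgfbr2-/-) in experiment 2. C1qa, a complement subunit of macrophages, was counted at 98.4 CPM in that library and at no more than 5.82 CPM in experiment 1. The receptor gene Csf1r, which defines the lineage, was at 53.0 CPM there and at 1.72 CPM or less in experiment 1. The 18 macrophage genes summed to 86.3 and 181 (WT) and 165 and 170.2 CPM (Tgfbr2-/-) in experiment 1, and to 189 and 1557 (WT) and 192 CPM (Tgfbr2-/-) in experiment 2. None of 16 tested was called, and their median log2 fold change of 4.09 was 0.46 without that library.

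Endothelial genes followed the same library. Plvap, a diaphragm protein of fenestrated capillaries, was counted at 0.508 and 0 (WT) and 0.269 and 13.5 CPM (Tgfbr2-/-) in experiment 1, and at 0 and 269 (WT) and 3.22 CPM (Tgfbr2-/-) in experiment 2. Kdr, the VEGF receptor, had no read in experiment 1 and was counted at 0.643, 27.3 and 0.691 CPM. Fibroblast collagen Col3a1 was counted at 94.2 CPM in WT replicate 2 and at no more than 2.02 CPM in any other library. Neither list had a called gene (11 and 17 tested). The endothelial list summed to 621 CPM in that library and to between 86.5 and 256 CPM in the others, where Pecam1 was the most abundant gene. The fibroblast and muscle list summed to 556 CPM there and to between 27.9 and 55.5 CPM elsewhere. Without that library their median log2 fold changes were -0.97 and -1.77, in place of 6.82 and 4.31.

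Among genes of other innate lymphocytes, 1 passed the test, and none of the ILC3 genes did. The ILC3 list summed to 2570 and 1843 (WT) and 2303 and 2156 CPM (Tgfbr2-/-) in experiment 1. In experiment 2 it summed to 1419 and 1246 (WT) and 2360 CPM (Tgfbr2-/-), so the experiments overlapped. The WT libraries of experiment 2 lay below those of experiment 1, and its Tgfbr2-/- library lay above both Tgfbr2-/- libraries of experiment 1. Il22, the cytokine of ILC3s, was counted at 424 and 164 (WT) and 165 and 211 CPM (Tgfbr2-/-) in experiment 1, and at 12.9 and 1.75 (WT) and 109.9 CPM (Tgfbr2-/-) in experiment 2 (log2 fold change -3.24, SE 1.16, adjusted p = 0.293), so the experiments did not overlap and the difference did not pass. With 1 library left out the log2 fold change of Il22 ran from -5.33, without the Tgfbr2-/- library of experiment 2, to -2.20, without WT replicate 2 of that experiment. Of 12 ILC3 genes tested, 0 were called, 6 were lower in experiment 2 without overlap (7.62% over all genes), and the median log2 fold change was -0.47, or -0.86 without WT replicate 1 of experiment 1. Ltb, lymphotoxin beta, the most abundant of them, was counted at 1432 and 1088 (WT) and 1575 and 1365 CPM (Tgfbr2-/-) in experiment 1, and at 893 and 777 (WT) and 1842 CPM (Tgfbr2-/-) in experiment 2, and overlapped.

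The ILC1 and natural killer (NK) cell list had 1 call in 20 genes tested, beside 0.494% called higher in experiment 1 over all genes. Il2rb, the beta chain of the IL-2 and IL-15 receptors, was counted at 799.5 and 709 (WT) and 707 and 1156 CPM (Tgfbr2-/-) in experiment 1, and at 246 and 345 (WT) and 481 CPM (Tgfbr2-/-) in experiment 2. It was lower in all 3 libraries of experiment 2 (log2 fold change -1.19, SE 0.23, adjusted p = 0.0899). The call of Il2rb was lost in each of the 7 edgeR fits with 1 library left out (adjusted p 0.102 to 0.27, log2 fold change -1.36 to -1.04), under upper quartile and library size scaling (0.127 and 0.129), without the genotype covariate (0.117) and with an offset for transcript GC content (the GC offset, 0.175, log2 fold change -0.95). Ifng was counted at 83.0 and 27.4 (WT) and 35.9 and 47.9 CPM (Tgfbr2-/-) in experiment 1, and at 10.2 and 8.16 (WT) and 19.7 CPM (Tgfbr2-/-) in experiment 2, without overlap, and was not called (adjusted p = 0.216). Xcl1, a chemokine of these cells, was counted at 18.4 and 7.03 (WT) and 18.3 and 42.1 CPM (Tgfbr2-/-) in experiment 1, and at 0.76 and 0 (WT) and 12.9 CPM (Tgfbr2-/-) in experiment 2, and overlapped. Eomes, which marks NK cells, had no read in any library. The median of the list was -0.94, and with 1 library left out it lay between -1.24 and -0.40, the latter without WT replicate 2 of experiment 1.

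The 70 genes called higher in experiment 1 were well expressed in every library, and their log2 fold changes ran from -2.04 to -0.80, with a median of -1.20. Cotl1 (chromosome 8, 122333125 to 122364479, mm9), an actin-binding protein, was counted at 847 and 788 (WT) and 938 and 923 CPM (Tgfbr2-/-) in experiment 1, and at 178 and 292 (WT) and 173 CPM (Tgfbr2-/-) in experiment 2. The log2 fold change was -2.04 (SE 0.23, adjusted p = 0.0295), the largest fall among the calls. Dusp5 (chromosome 19, 53603599 to 53616921, mm9), a phosphatase that turns off ERK, was counted at 1621 and 1576 (WT) and 1447 and 1912 CPM (Tgfbr2-/-) in experiment 1, and at 548 and 289 (WT) and 447 CPM (Tgfbr2-/-) in experiment 2 (log2 fold change -1.92, SE 0.24, adjusted p = 0.0444). In both genes the 2 experiments were far apart relative to the spread within each.

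The other 10 genes with the largest falls were as follows. Srsf2 (chromosome 11, 116711215 to 116714408, mm9), a splicing factor, was counted at 432 and 389 (WT) and 409 and 362 CPM (Tgfbr2-/-) in experiment 1, and at 140.4 and 112 (WT) and 126 CPM (Tgfbr2-/-) in experiment 2 (log2 fold change -1.67, SE 0.18, adjusted p = 0.0271). Pcbp1, a poly(C)-binding protein, fell from 545 ± 91.0 CPM (SD, n = 4) to 173 ± 31.1 CPM (SD, n = 3), and Tfip11, a factor of spliceosome disassembly, from 242 ± 47.5 to 77.0 ± 11.0 CPM. Cwc25, a splicing factor, and Ell, an elongation factor of RNA polymerase II, had log2 fold changes of -1.66 (SE 0.27) and -1.66 (SE 0.32). The rest were Rnpepl1 (-1.96), Rab5c (-1.87), which acts in early endosomes, Slc7a6os (-1.80), Pik3r5 (-1.79), a regulatory subunit of phosphoinositide 3-kinase, and Lgals1 (-1.78), a galectin. Their adjusted p-values ran from 0.0734 to 0.0842. The calls of Ell, Rnpepl1, Slc7a6os, Pik3r5 and Lgals1 were lost in each edgeR fit with 1 library left out. Those of Ell, Rnpepl1, Pik3r5 and Lgals1 were also lost under upper quartile scaling and with the GC offset.

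A further 4 of the 70, Pim1, Cdkn1a, Irf1 and H2-K1, were chosen after their values were seen. Pim1, a kinase induced by cytokine signals, was counted at 2679 and 2370.4 (WT) and 1899 and 2568 CPM (Tgfbr2-/-) in experiment 1, and at 826 and 867 (WT) and 915 CPM (Tgfbr2-/-) in experiment 2 (log2 fold change -1.46, SE 0.16, adjusted p = 0.0271). Cdkn1a, the cell cycle inhibitor p21, was counted at 1567 and 1223 (WT) and 1073 and 1969 CPM (Tgfbr2-/-) in experiment 1, and at 408 and 398 (WT) and 668 CPM (Tgfbr2-/-) in experiment 2 (log2 fold change -1.54, SE 0.24, adjusted p = 0.07). Irf1, an interferon regulatory factor, had a log2 fold change of -1.14 (SE 0.19), and H2-K1, a class I histocompatibility gene whose reads can be shared with its paralogs, one of -0.80 (SE 0.14). None of these 4 overlapped between the experiments. Odc1, the rate-limiting enzyme of polyamine synthesis, was the 1 call among 17 tested ILC2 cytokines and effectors (0.494% over all genes). It was counted at 171 and 120.5 (WT) and 166 and 269 CPM (Tgfbr2-/-) in experiment 1, and at 56.7 and 54.2 (WT) and 87.6 CPM (Tgfbr2-/-) in experiment 2 (log2 fold change -1.36, SE 0.25, adjusted p = 0.0842), and the call was lost in each fit with 1 library left out, under upper quartile and library size scaling (adjusted p = 0.119 and 0.124), without the genotype covariate (0.114) and with the GC offset (0.119). The type 2 cytokine genes Il4, Il5 and Il13 and the growth factor gene Areg were not called, with log2 fold changes of 0.12, 0.55, -0.91 and -0.01, and the median of the list was 0.12, or -0.17 with the GC offset and -0.04 without Tgfbr2-/- replicate 1 of experiment 1.

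**Figure D4:**
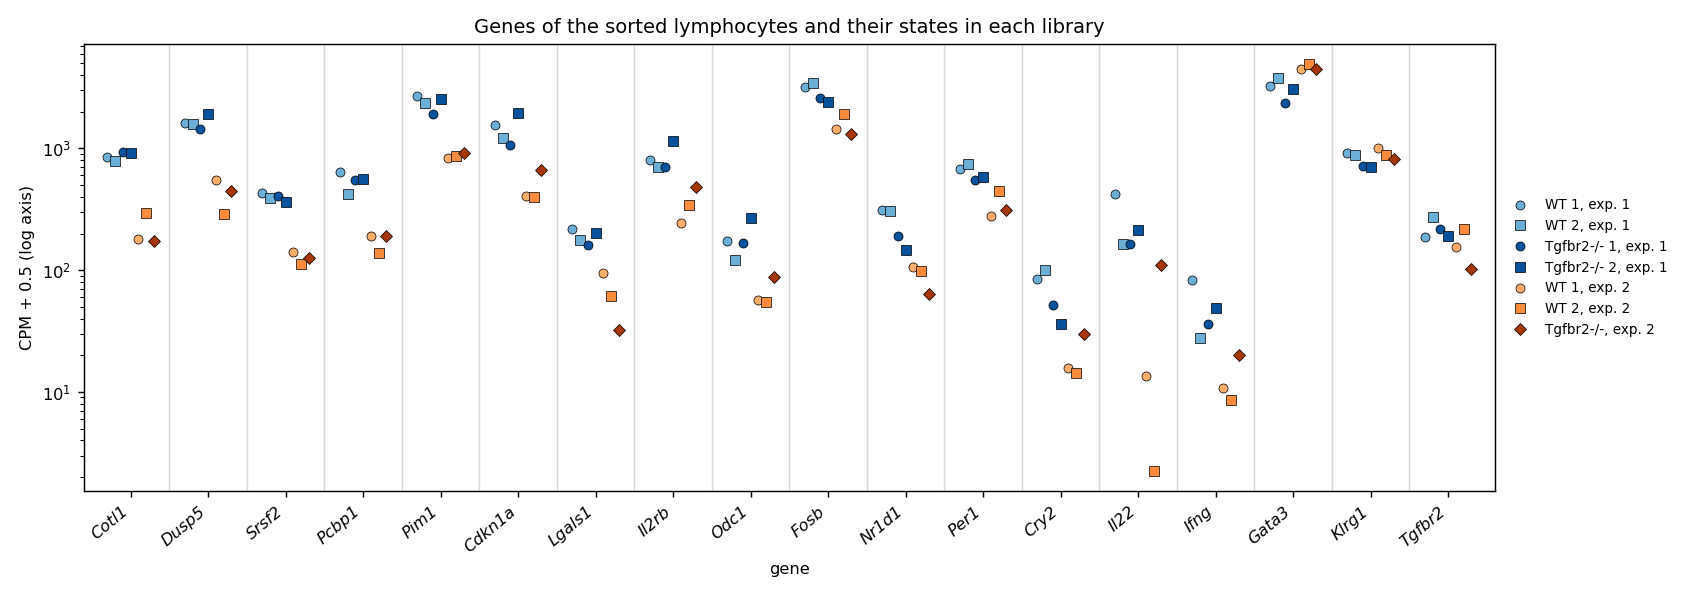
CPM + 0.5 on a log axis (y) of 18 genes (x) in the 7 libraries. The genes from Cotl1 to Nr1d1 were called and lie lower in experiment 2, and Per1 to Tgfbr2 were not called, with Klrg1 and Tgfbr2 overlapping between the experiments.

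Clock genes had 1 call in 15 tested (0.494% over all genes). Nr1d1 (chromosome 11, 98629246 to 98636647, mm9), which encodes the clock repressor REV-ERBalpha, was counted at 312 and 305 (WT) and 191 and 147 CPM (Tgfbr2-/-) in experiment 1, and at 106 and 98.4 (WT) and 62.9 CPM (Tgfbr2-/-) in experiment 2. It was lower in all 3 libraries of experiment 2, with a log2 fold change of -1.52 (SE 0.19, adjusted p = 0.0475), and the value stayed between -1.61 and -1.48 with any 1 library left out, though it was called in 2 of these 7 fits. Per1 was counted at 683 and 744 (WT) and 549 and 584 CPM (Tgfbr2-/-) in experiment 1, and at 276 and 447 (WT) and 309.6 CPM (Tgfbr2-/-) in experiment 2, without overlap (adjusted p = 0.108). Cry2, a repressor of the same loop, was counted at 84.4 and 100.1 (WT) and 51.4 and 35.7 CPM (Tgfbr2-/-) in experiment 1, and at 15.1 and 13.8 (WT) and 29.6 CPM (Tgfbr2-/-) in experiment 2 (adjusted p = 0.206). In all, 5 of the list were lower in experiment 2 without overlap (7.62% over all genes), 0 higher (8.32%), and the median log2 fold change was -0.57. Arntl and Clock, which drive the loop, had log2 fold changes of 0.38 (SE 0.31) and 1.06 (SE 0.78) and were not called. No source used here gives the hour at which the mice were killed.

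Immediate early genes, which switch on within minutes of a stimulus or of tissue digestion, took a large share of the reads in all libraries. The 27 genes summed to 102508 and 88795 (WT) and 72011 and 77547 CPM (Tgfbr2-/-) in experiment 1, and to 77244 and 70739 (WT) and 74853 CPM (Tgfbr2-/-) in experiment 2, so the ranges overlapped. Fosb was the 1 call in the list (0.494% over all genes). It was counted at 3192 and 3466 (WT) and 2585 and 2412 CPM (Tgfbr2-/-) in experiment 1, and at 1436 and 1924 (WT) and 1319 CPM (Tgfbr2-/-) in experiment 2 (log2 fold change -0.96, SE 0.14, adjusted p = 0.0645). The call of Fosb was lost in 6 of the 7 edgeR fits with 1 library left out (adjusted p 0.106 to 0.246), without the genotype covariate (0.107), with library size scaling (0.101) and with the GC offset (0.134, log2 fold change -0.65). Junb, the most abundant member, was lower in experiment 2 without overlap and was not called (-0.65, SE 0.13, adjusted p = 0.106). Dusp1 was counted at 10247 and 8278 (WT) and 7199 and 6809 CPM (Tgfbr2-/-) in experiment 1, and at 12611 and 8939.7 (WT) and 13107 CPM (Tgfbr2-/-) in experiment 2 (0.50, SE 0.18, adjusted p = 0.296), and Fos, Jun and Egr1 had log2 fold changes of 0.12, 0.13 and 0.07. Of the list, 8 were lower in experiment 2 without overlap (7.62% over all genes) and 0 higher, and 9 had an unadjusted p under 0.05 with a lower level (6.32% over all genes) against 1 with a higher one (7.85%). The median was -0.32, or -0.16 with the GC offset and -0.14 under library size scaling.

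Other state lists had few or no calls. Among NF-kB subunits, inhibitors and targets 0 of 17 were called and the median log2 fold change was -0.38, or -0.22 with the GC offset. Among heat shock genes 0 of 13 were called (median -0.66, or -0.25 without WT replicate 1 of experiment 1). They summed to 16822 CPM in WT replicate 1 of experiment 1 and to between 6005 and 9246 CPM in the other 6 libraries. Glucocorticoid response genes had 0 calls in 10, a median of -0.63 and 4 members lower in experiment 2 without overlap (7.62% over all genes), among them Txnip (-1.49, SE 0.31, adjusted p = 0.107). In the TGF-beta pathway 0 of 12 were called (median -0.14). Smad7, its feedback inhibitor, was counted at 83.5 and 66.0 (WT) and 24.8 and 35.9 CPM (Tgfbr2-/-) in experiment 1, and at 20.8 and 34.1 (WT) and 15.4 CPM (Tgfbr2-/-) in experiment 2 (-1.26, SE 0.36, adjusted p = 0.222), and Tgfb1, the ligand gene, had a log2 fold change of -1.65 (SE 0.71, adjusted p = 0.346). Glycolysis, respiratory chain, checkpoint, and residency and egress lists had no call in 20, 22, 13 and 15 genes, with medians of -0.14, -0.04, 0.07 and -0.35. The glycolysis, respiratory chain and TGF-beta medians were above 0 under scaling by library size (0.03, 0.14 and 0.03). The checkpoint median was -0.22 without the Tgfbr2-/- library of experiment 2, and the residency and egress median was -0.14 with the GC offset.

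Most ribosomal protein genes had lower values in experiment 2, by a small amount. Of 30 tested, 1 was called (Rpl18, log2 fold change -1.11, SE 0.20, adjusted p = 0.0842), beside 0.494% over all genes. Among all 70 calls higher in experiment 1, in or outside this list, 5 were ribosomal genes by symbol (Rpl, Rps or Fau). The call of Rpl18 was lost in 6 of the 7 edgeR fits with 1 library left out, under upper quartile and library size scaling (adjusted p = 0.131 and 0.146) and with the GC offset (0.132). Of the 30, 27 were lower in every experiment 2 library than in every experiment 1 library, beside 7.62% of all genes. They summed to 17443 and 16870.4 (WT) and 20140.4 and 19015 CPM (Tgfbr2-/-) in experiment 1, and to 9952 and 13183 (WT) and 12930.5 CPM (Tgfbr2-/-) in experiment 2. The median log2 fold change of -0.62 lay between -0.76 and -0.52 with any 1 library left out. Scaling moved the median of all genes from 0.10 to 0.22 (upper quartile) and 0.28 (library size), and that of the ribosomal genes to -0.44 at most.

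The 7 genes called higher in experiment 2 that were also expressed at 10 CPM or more in experiment 1 were Sept2, Sept7, Serinc3, Mbnl1, Spcs3, Tmem30a and Sh3bgrl. Sept2, a septin of the cytoskeleton, was counted at 69.4 and 56.2 (WT) and 49.1 and 44.7 CPM (Tgfbr2-/-) in experiment 1, and at 152 and 142 (WT) and 129 CPM (Tgfbr2-/-) in experiment 2 (log2 fold change 1.32, SE 0.21, adjusted p = 0.07). Mbnl1, a regulator of splicing, was counted at 498 and 438 (WT) and 342 and 393 CPM (Tgfbr2-/-) in experiment 1, and at 837 and 846 (WT) and 749 CPM (Tgfbr2-/-) in experiment 2 (0.92, SE 0.15, adjusted p = 0.07). Serinc3, a membrane protein, had a log2 fold change of 0.96 (SE 0.15). Neither Sept2, Mbnl1 nor Serinc3 overlapped between the experiments, as was the case for nearly all calls, so this adds little to them. DESeq2 called all 7 genes. In edgeR fits with 1 library left out at most 1 of the 7 was still called. The log2 fold change then ran from 1.21 to 1.42 for Sept2, 0.83 to 0.98 for Mbnl1 and 0.83 to 1.09 for Serinc3. With the GC offset 0 of the 6 of these 7 with a GC value were called.

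These genes and the 70 differed in base composition. Transcripts of the 62 of the 70 with a GC value had a median GC content of 55.9%, those of the 6 of the 7 with one a median of 39.2%, and genes of at least 10 CPM one of 50.4%. The median log2 fold change was 0.30 in the 1554 genes of lowest GC content (up to 44.7%) and -0.41 in those of highest (from 56.0%). Spearman's rho across 7768 genes, which share the same 7 libraries, was -0.39 for GC content and 0.07 for transcript length. From the lowest to the highest of these bins the median deviation of a library rose by 0.23 to 0.51 in each library of experiment 1 and fell by 0.32 to 0.46 in each of experiment 2, as the plot of level against GC content shows.

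**Figure D5:**
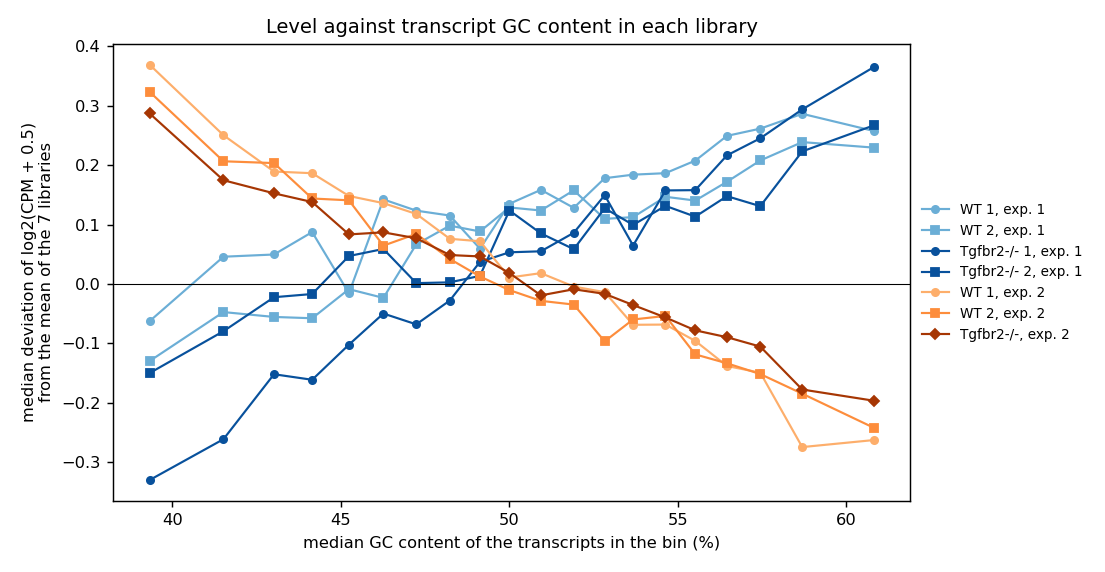
Median deviation of log2(CPM + 0.5) from the mean of the 7 libraries (y) in 20 bins of genes by transcript GC content (x, %), 1 line per library. The 4 libraries of experiment 1 run upward with GC content and the 3 of experiment 2 run downward.

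With each library's GC trend as an offset, a setting chosen after the data were seen, edgeR called 42 of 12436 genes with a GC value (22 higher in experiment 2), in place of 169 without the offset. Of the 62 genes higher in experiment 1 with a GC value 18 remained, among them Cotl1, Dusp5, Srsf2, Pcbp1, Cwc25, Pim1 and Nr1d1. All 62 stayed lower in experiment 2, and their median log2 fold change was -0.99 with the offset and -1.21 without it. For the 44 that lost the call these medians were -0.90 and -1.17. Of 30 higher in experiment 2 with one 20 remained, and these were all among the 28 of low level in experiment 1. Medians under the offset were -0.44 for ribosomal genes, -0.40 for clock genes, -0.38 for ILC3 genes and 8.42 for epithelial genes, beside 0.13 for all. They were -0.14 for residency and egress genes and -0.22 for NF-kB genes, in place of -0.35 and -0.38. For gate genes and ILC2 receptors and transcription factors they were 0.09 and -0.09, in place of 0.22 and 0.03. With the offset 7.18% of genes had an unadjusted p under 0.05 with a higher and 4.5% with a lower level in experiment 2. The part of GC content in the other calls was not tested further, and the run and the experiment cannot be told apart.

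Whether the difference between the experiments depended on the genotype was tested by an interaction term. With edgeR 0 of 14175 genes (0%) had an adjusted p under 0.1 and 295 (2.08%) an unadjusted p under 0.05, and DESeq2 called 117. Experiment 2 holds a single Tgfbr2-/- library, so any genotype effect there and that library's own transcripts cannot be told apart. With the WT libraries alone edgeR called 0 genes, with 1585 at an unadjusted p under 0.05. An exact permutation of the experiment labels within genotype has 18 arrangements and cannot go below p = 0.0556 (two-sided). The summed levels of the epithelial, secretory, macrophage, mitotic, interferon, clock and glucocorticoid lists reached this smallest p (0.0556, exact permutation). So did those of the residency and egress, glia and neuron, and ribosomal lists and of the gate genes. Among lists that did not were ILC3 (0.278), ILC1 and NK (0.333), T cell (0.167), acinar (0.278) and immediate early genes (0.222). Endothelial, fibroblast and muscle, and dendritic cell and MHC class II lists did not either (0.944 each).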

How the data were processed

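LP ILC2s were sorted in 2 experiments and their RNA was sequenced, 7 libraries in all. The authors mapped reads to mm9 with TopHat, keeping up to 15 hits, and the submitters' processing notes also name Bowtie2. Per the file headers, the deposited read counts per gene were made over RefSeq transcripts with rpkmforgenes, and reads with several hits can count more than once. The deposited RPKM values, reads scaled to transcript length and library total, were made by the authors from the same reads. Each table listed 24690 entries, 205 of them joining several genes, and held no comparison by the authors. The 8 libraries of bone marrow precursors were not used here.

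Counts were tested with edgeR 4.0.16 in R 4.3.3 (TMM, filterByExpr over the groups of genotype and experiment, glmQLFit and glmQLFTest, genotype as covariate, Benjamini-Hochberg adjustment over 14175 entries), calling an adjusted p under 0.1 with a fold over 1.5. The residual degrees of freedom were 4. The script was tested on simulated data. DESeq2 1.42.0 and limma 3.58.1 on log2(RPKM + 1) were alternatives. Depth ran from 12167066 to 32114265 counts. Single values were also permuted exactly within genotype. Named were Tgfbr2, members of 34 marker and state lists, and for each direction the 12 calls with the largest change that did not overlap and reached 5 CPM. A further 5 lists and some called genes were chosen after their values were seen. Members and lists were chosen with earlier results of these data known. Positions and GC content came from GENCODE vM1 on NCBIM37 (mm9), with a GC value for 87.7% of the genes tested.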

Additional observations from a re-analysis of the deposited data

Results flagged for a closer look

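Among 93 values checked over the 4 libraries of experiment 1, 9 had 1 library far from the other 3 by Dixon's ratio of gap to range at its 95% limit, where chance alone gives about 1 in 20. Replicates are named by the sample titles, from which the file headers differ for the Tgfbr2-/- libraries. The Tgfbr2-/- replicate 2 library stood apart for Krt8 (10.8 CPM against at most 0.202 CPM, ratio 0.986), Krt19 (8.66 against at most 0.168 CPM, ratio 0.986), the summed goblet, Paneth and enteroendocrine genes (58.2 against at most 6.36 CPM, ratio 0.905) and the endothelial gene Plvap (13.5 against at most 0.508 CPM, ratio 0.962). WT replicate 2 stood apart for Muc6 (17.7 against at most 0.168 CPM, ratio 0.996). WT replicate 1 stood apart for the inducible chaperone Hspa1a (1705 against at most 216 CPM, ratio 0.931), the summed macrophage genes (86.3 against at least 165 CPM, ratio 0.837) and the summed respiratory chain genes (6405 against at most 5394 CPM, ratio 0.831). Tgfbr2-/- replicate 1 was low for the summed ILC2 cytokines and effectors (1924 against at least 2727 CPM, ratio 0.858).

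For 6 values all WT libraries moved one way between the experiments and the Tgfbr2-/- libraries the other way. The difference of the WT change minus the Tgfbr2-/- change on the log2 scale was -0.793 for the summed ILC3 genes, -1.85 for the summed B cell and plasma cell genes, -2.54 for Igj, 3.77 for the summed neutrophil and eosinophil genes, 3.21 for the summed red cell and platelet genes and 9.41 for the summed acinar genes. These differences were not tested singly, and each rests on 1 Tgfbr2-/- library of experiment 2.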

How the results depend on the processing

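The count of 105 calls was within 1.5 times of itself with RLE size factors (97), limma on RPKM (86), at least 10 counts in every library (81), no genotype covariate (92), entries of the same implied length (89), no fold threshold (105) and, chosen after seeing the data, a filter over the 2 experiments (117). It was 1954 with DESeq2, 320 without a filter on low counts, 60 with upper quartile scaling, 46 with library size alone, 10 at an adjusted p under 0.05, 4 with the spread taken over 4 groups, 0 with WT libraries only (1585 at an unadjusted p under 0.05) and 2 with Tgfbr2-/- libraries only, both fits having fewer libraries. Settings chosen after seeing the data gave 1449 with a likelihood ratio test, 169 over genes with a GC value and 42 with the GC offset. Leaving out 1 library gave 0 to 61: 25 and 12 without WT replicate 1 or 2 of experiment 1, 13 and 2 without Tgfbr2-/- replicate 1 or 2, 16 and 61 without WT replicate 1 or 2 of experiment 2, and 0 without its Tgfbr2-/- library. Of the 105 genes, 48 were called in at least 1 of these fits. The cause of these shifts was not tested. The interaction gave 117 calls with DESeq2, and 0 by edgeR with any 1 library left out other than the Tgfbr2-/- library of experiment 2, without which it has no term.

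A replicate block on the WT numbers gave 185 calls (69 higher in experiment 2), 105 of them shared. The labels do not say that a number marks a shared animal or day. The difference between WT replicates 1 and 2 had a correlation of 0.000295 between the experiments across 8417 genes. This value cannot show what a number marks, and that was not tested further.

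For 77 named genes, 1640 values under alternatives held 1171 on the same side of the threshold and in the same direction, 382 that lost a call, 75 that gained one and 12 that changed direction. With 1 library left out the log2 fold change ran from -0.47 to 3.80 for Apoe, -0.47 to 9.76 for C1qa, -2.08 to 9.01 for Plvap and -2.98 to 6.60 for Col3a1, each lowest without WT replicate 2 of experiment 2, and from -1.81 to 0.43 for Hspa1a, highest without WT replicate 1 of experiment 1. With Tgfbr2-/- libraries only it was -0.94 for Apoe, -1.08 for Plvap, -7.69 for Col3a1, 0.53 for Hspa1a and 0.38 for Igj. For Col3a1 it was -1.32 with the replicate block and -0.42 with the spread over 4 groups. Of 438 list medians under alternatives 118 moved by more than the spread between libraries. Depth limits genes under about 1 CPM, where 3 reads equal up to 0.23 CPM in the shallowest library.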

Other observations

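Markers of other lymphocytes and of myeloid cells were counted at uneven levels in the 7 libraries. B cell and plasma cell genes summed to 599 and 467 (WT) and 118 and 131 CPM (Tgfbr2-/-) in experiment 1, and to 148 and 294 (WT) and 177 CPM (Tgfbr2-/-) in experiment 2, with the plasma cell gene Igj the most abundant in 3 of the WT libraries. Igj was counted at 422 and 389 (WT) and 36.1 and 28.1 CPM (Tgfbr2-/-) in experiment 1, and at 46.7 and 175 (WT) and 41.5 CPM (Tgfbr2-/-) in experiment 2. The WT libraries of experiment 1 were the highest, and 0 of 15 genes were called. Among T cell genes 0 of 15 were called. Cd4 was counted at 93.8 and 1.47 (WT) and 47.2 and 22.8 CPM (Tgfbr2-/-) in experiment 1, and at 3.92 and 8.02 (WT) and 7.45 CPM (Tgfbr2-/-) in experiment 2, and Cd8a had no read in either experiment. Dendritic cell and MHC class II genes summed to 1140.3 and 552 (WT) and 597 and 854 CPM (Tgfbr2-/-) in experiment 1, and to 284 and 1948 (WT) and 867 CPM (Tgfbr2-/-) in experiment 2, with 0 of 13 called. Granulocyte, mast cell and basophil, glia and neuron, and red cell and platelet genes summed to at most 23.0, 31.4, 1.52 and 15.1 CPM in any library and had no call in 3, 4, 2 and 4 genes tested.

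Mitotic genes summed to 310.3 and 254 (WT) and 125 and 156 CPM (Tgfbr2-/-) in experiment 1, and to 88.9 and 108 (WT) and 66.6 CPM (Tgfbr2-/-) in experiment 2, so all 3 libraries of experiment 2 lay below the 4 of experiment 1. None of 19 was called, and the median log2 fold change was -1.27, or -0.78 without WT replicate 2 of experiment 1. Ube2c, a ubiquitin enzyme of mitotic exit, was counted at 10.7 and 38.4 (WT) and 6.30 and 13.3 CPM (Tgfbr2-/-) in experiment 1, and at 1.46 and 0.219 (WT) and 0.845 CPM (Tgfbr2-/-) in experiment 2 (adjusted p = 0.184 by edgeR). S phase genes had a median of -0.26 with 0 of 16 called. Interferon-stimulated genes had 0 of 25 called and a median of 0.53, or 0.28 without WT replicate 1 of experiment 2. Nuclear and small noncoding RNAs (0 of 9 called) and Xist with Y-linked genes (0 of 4 called) had medians of 0.59 and 0.53. These were 0.20 without Tgfbr2-/- replicate 1 and 0.33 without WT replicate 1 of experiment 1. The summed level of the noncoding RNAs, most of it Rn45s, went the other way (log2 difference -0.42). The ribosomal RNA precursor Rn45s took 3.60% to 6.74% of the counts in experiment 1 and 2.29% to 6.16% in experiment 2.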
